A study of Mus musculus with 8 samples.

Results

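The genes described here lie on mouse chromosome 4 around Ndufs5, a subunit gene of mitochondrial complex I, and Tlr12, a gene of a toll-like receptor. They are the genes that start between 113.7 and 133.7 Mb on GRCm38 and that reached a mean of 1 CPM (counts scaled to the size of each library) or more in either group of kidneys. Of the 555 genes placed in that interval, 240 reached this level, and 14 of these were set aside by name (9 Cyp4 genes, Col16a1, Uqcrh, Cldn19, Slc2a1 and Tie1), which left 226 of the 37583 genes listed. The interval was drawn around Ndufs5 and Tlr12 because both were high in the same 3 of 8 libraries, so the values of those 2 genes chose the members and are given as a description without a test. The question put to the other members was which of them were high or low in the same 3 libraries.

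The series compared whole mouse kidneys of 2 groups of 4 libraries each. The animals labelled knockout were Six2Cre+TFAP2Afl/flTFAP2Bfl/WT, that is, they carried Cre driven by Six2, a gene of nephron progenitors, with both alleles of Tfap2a and 1 allele of Tfap2b floxed. The animals labelled wildtype were control littermates given as WT, with no further alleles named. Age, sex, litter and strain were not stated, nor whether every library had its own animal, so p-values measure only the spread between these libraries, which may be technical. The libraries that share the high Ndufs5 and Tlr12 values are knockout replicates 1, 2 and 3, and the other 5 are knockout replicate 4 and all 4 wildtype replicates. Where 4 values are given for a group, they stand in the order of replicates 1 to 4.

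Complex I takes electrons from NADH at the start of the respiratory chain and is abundant in the mitochondria of kidney tubules; Ndufs5 encodes one of its accessory subunits. Toll-like receptors sense microbial molecules, and the receptor encoded by Tlr12 acts with that of Tlr11 in mouse dendritic cells, where it recognises the profilin of a parasite. Variants that lie close together on a chromosome tend to be inherited together, so a stretch of a chromosome can differ between littermates of mixed descent. The deposited files hold counts per gene and no genotypes or bases, so linkage of the members to a variant was not tested.

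The Ndufs5 counts need to be read with a near-identical copy of its coding sequence. BC002163 (ENSMUSG00000081824) is a processed pseudogene on the plus strand of chromosome 16 (42955631 to 42955949 on GRCm38, in an intron of Zbtb20); it is not a member and was named after its values were seen. Its 319 bases align to positions 1 to 319 of the 321 coding bases of Ndufs5 with 2 differences, an identity of 99.4%. Positions are counted from 1 at the A of the start codon, the Ndufs5 base comes before the position and the base of the copy after it. The differences are T81C, in codon 27 (chromosome 4 position 123715999, exon 2 of 3), and A105G, in codon 35 (chromosome 4 position 123715975, also exon 2). The stretch from coding position 66 to 120 is shown because it holds both places, in capitals, where reads of the coding sequence can be told apart; the letters are those of GENCODE M21 on GRCm38, 5′ to 3′ along the coding strand.

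Ndufs5: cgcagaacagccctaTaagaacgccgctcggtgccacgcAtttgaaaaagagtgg

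BC002163: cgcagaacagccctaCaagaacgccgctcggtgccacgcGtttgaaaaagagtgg

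The 250 bases before the RefSeq start of Tlr12 and of Zfp69, another member with the pattern, are shown because these genes were high in the same libraries and had no near-identical copy (95% identity or more over 100 bases or more). They were read from the RefSeq promoter table (GRCm38.p6), chr4:128618620-128618869 for Tlr12 and chr4:120951702-120951951 for Zfp69, both on the minus strand. Capitals mark a match to GCCNNNGGC, the core motif of AP-2 proteins, the family of the targeted factors, which reads the same on both strands.

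Tlr12: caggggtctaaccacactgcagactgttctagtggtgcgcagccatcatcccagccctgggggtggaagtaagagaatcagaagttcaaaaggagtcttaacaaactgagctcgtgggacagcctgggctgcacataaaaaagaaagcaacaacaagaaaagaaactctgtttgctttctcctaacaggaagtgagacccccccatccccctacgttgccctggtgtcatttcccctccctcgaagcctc

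Zfp69: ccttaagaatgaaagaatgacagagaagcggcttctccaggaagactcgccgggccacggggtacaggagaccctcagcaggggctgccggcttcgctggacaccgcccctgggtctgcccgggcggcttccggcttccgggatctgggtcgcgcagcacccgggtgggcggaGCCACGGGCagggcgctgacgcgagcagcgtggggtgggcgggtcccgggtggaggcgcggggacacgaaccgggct

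The motif was searched in RefSeq windows of 300 bases, from 250 before to 50 after each start. It was found in 0 places for Tlr12, 0 for Ndufs5 and 1 for Zfp69. Of all 27025 promoters in the table, 16.5% held it, beside 29.8% of the 191 members that matched a promoter (57 of 191). The members were chosen by their level in kidney and the promoters in the table were not, so these shares compare unlike sets. Of the 8 members that followed the pattern, 6 matched a promoter and 1 of these, Zfp69, held the motif. A match describes letters in a window and is no evidence of binding.

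Counts assigned to genes ranged from 13871861 to 16629301 per library, and the members took 1.26% to 1.35% of them. The targeted genes did not separate the labels. Tfap2a was at 5.03 ± 0.975 CPM (SD, n = 4) in knockout and 4.22 ± 1.09 CPM (SD, n = 4) in wildtype libraries, and Tfap2b at 79.8 ± 20.7 and 78.3 ± 20.4 CPM; the counts sum over whole genes and the labels do not say which exons Cre removes, so this is no check of the deletion. Proximal tubule markers summed to 36116 to 62430 CPM and distal nephron markers to 6318 to 9105 CPM over the 8 libraries, with every marker of both lists detected in each. Adrenal steroid-synthesis transcripts summed to 918 CPM in knockout replicate 2 and 884 CPM in wildtype replicate 1 and to 11.5 CPM or less elsewhere, and heat-shock transcripts to 831 CPM in knockout replicate 2 and 1307 CPM in knockout replicate 4 against 411 CPM or less elsewhere. Red cell transcripts summed to 7613 CPM in knockout replicate 1, a library of the pattern, and to 1308 CPM or less elsewhere; their part in the results was not tested. Without knockout replicate 1, Ndufs5, Tlr12 and Zfp69 were still higher in the other 2 libraries of the pattern than in the remaining 5. That had to hold, since all 3 libraries of the pattern lay above the other 5 to begin with. It therefore does not bear on the red cell transcripts. Neither the adrenal nor the heat-shock pair coincides with the 3 libraries of the pattern.

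The members were mostly ordinary expressed genes. GENCODE M21 gives 218 of them as protein coding, 3 as processed transcripts, 2 as lincRNAs and 1 each as antisense, processed pseudogene and polymorphic pseudogene. Mean levels over the 8 libraries ran from 0.975 to 2345 CPM with a median of 22.2 CPM, and 158 members were at 10 CPM or more and 27 at 100 CPM or more. The interval ran from Trabd2b, which encodes a protease that inactivates Wnt proteins, at -9.31 Mb from the start of Ndufs5, to Arid1a, a subunit gene of a chromatin remodelling complex, at 9.97 Mb. Negative distances lie towards the start of the chromosome. Just inside the level threshold were Rad54l (1.03 CPM in wildtype) and Ptafr (1.11 CPM in knockout), and just outside were Gm12993 (0.999 CPM in wildtype) and Trnp1 (0.988 CPM in knockout).

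Ndufs5 (ENSMUSG00000028648, chromosome 4, 123712710 to 123718202, minus strand) was at 6.57, 5.11, 12.3 and 0.737 CPM in the knockout libraries and at 0.544, 0.251, 0.444 and 0.322 CPM in the wildtype libraries. These levels came from 105, 80, 167 and 11 reads in the knockout libraries and 8, 4, 7 and 5 reads in the wildtype libraries. Knockout replicates 1, 2 and 3 were far above the other 5, and knockout replicate 4 was closer to the wildtype libraries, though above all 4 of them. By label the means were 6.19 ± 4.79 CPM (SD, n = 4) and 0.390 ± 0.130 CPM (SD, n = 4), a log2 difference of 3.97 (SE 0.76).

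BC002163 had the reverse order. It was at 7.63, 8.18, 1.40 and 15.0 CPM in the knockout libraries and at 16.4, 12.0, 13.1 and 14.8 CPM in the wildtype libraries. Knockout replicate 3, the highest for Ndufs5, was the lowest for the copy, and all 3 libraries of the pattern were below the other 5. The sum of both genes was 14.2, 13.3, 13.7 and 15.7 CPM in the knockout libraries and 16.9, 12.3, 13.6 and 15.1 CPM in the wildtype libraries. In the sum the 3 libraries lay inside the range of the other 5. By label the sum was 14.2 ± 1.07 CPM (SD, n = 4) in knockout and 14.5 ± 2.00 CPM (SD, n = 4) in wildtype, a log2 difference of -0.02 (SE 0.13).

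**Figure D1:**
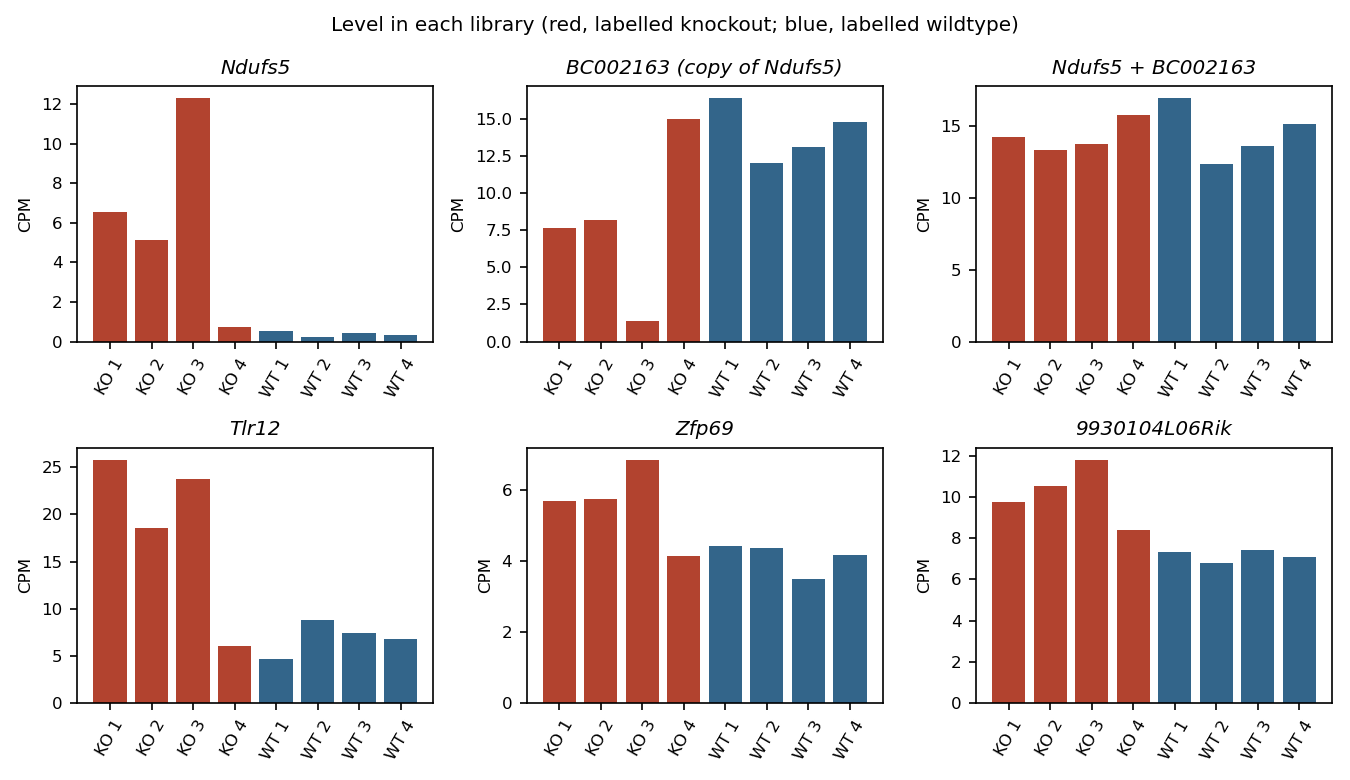
Level of 6 quantities in each of the 8 libraries, in CPM on linear axes that start at 0 (KO, labelled knockout, red; WT, labelled wildtype, blue; each bar is 1 library). Ndufs5, Tlr12, Zfp69 and 9930104L06Rik were highest in KO 1, 2 and 3, BC002163 was lowest there, and the sum of Ndufs5 and BC002163 ran from 12.3 to 16.9 CPM without that order.

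Expressed as a share, the reads of Ndufs5 were 46.3% of the reads of both genes in knockout replicate 1 (95% exact Clopper-Pearson interval 39.6% to 53.0%), 38.5% in replicate 2 (31.8% to 45.4%) and 89.8% in replicate 3 (84.5% to 93.7%). In knockout replicate 4 the share was 4.68% (2.36% to 8.22%). In the wildtype libraries it was 3.21% (1.40% to 6.23%), 2.04% (0.559% to 5.14%), 3.27% (1.33% to 6.62%) and 2.14% (0.697% to 4.92%). Replicates 1 and 2 had overlapping intervals, replicate 3 lay above both, and the other 5 libraries overlapped one another near the bottom of the scale. The intervals cover counting error only, since duplicates made by PCR were not removed by molecular identifiers. Reads that fit both places equally were set aside by the counting, so these shares rest on reads that were given to one place, and which bases those reads carried was not tested.

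**Figure D2:**
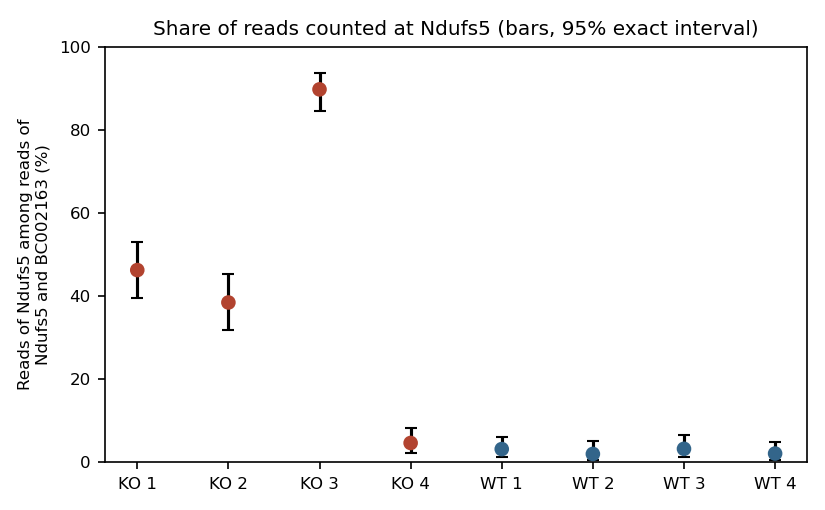
Reads counted at Ndufs5 as a percentage of the reads counted at Ndufs5 and BC002163 in each library (KO, labelled knockout, red; WT, labelled wildtype, blue), with 95% exact intervals as bars. KO 1 and KO 2 sit at 46.3% and 38.5%, KO 3 at 89.8%, and the other 5 libraries at 2.04% to 4.68%.

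Tlr12 (ENSMUSG00000062545, chromosome 4, 128615443 to 128618619, minus strand, 4.90 Mb from the start of Ndufs5) was at 25.8, 18.6, 23.8 and 6.03 CPM in the knockout libraries. In the wildtype libraries it was at 4.62, 8.85, 7.42 and 6.77 CPM. Knockout replicate 4 fell inside the wildtype range and the other 3 knockout libraries lay above it. The counts behind these levels were 291 to 412 reads in the 3 high libraries and 68 to 141 in the other 5. By label the means were 18.5 ± 8.87 CPM and 6.91 ± 1.76 CPM (SD, n = 4 each), a log2 difference of 1.43 (SE 0.40).

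Genes of dendritic cells, in which Tlr12 is known to act, did not share this order. The 8 dendritic cell markers (Itgax, Flt3, Xcr1, Clec9a, Siglech, Zbtb46, H2-Aa and Cd74), all detected in every library, summed to 375, 201, 363 and 251 CPM in the knockout libraries and to 152, 573, 404 and 331 CPM in the wildtype libraries. The 6 macrophage markers summed to 116 to 160 CPM in knockout and 120 to 177 CPM in wildtype libraries. For both lists the 3 libraries of the pattern lay within the range of the other 5 or overlapped it. In whole kidney, fewer cells of a type and less RNA per cell cannot be told apart.

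To ask which other members followed, each was given a separation. This is the log2 CPM (with 2 counts added on average before the log) of the lowest of knockout replicates 1, 2 and 3 minus that of the highest of the other 5 libraries. A member follows the pattern where this is above 0, that is, where all 3 libraries are above all 5 others; the opposite direction was scored in the same way. Over all 13911 genes with a mean of 1 CPM or more in either group, 1.21% followed in the same direction and 1.43% in the opposite one. Of the 226 members, 8 followed in the same direction (3.54%) and 1 in the opposite direction (0.442%). Without Ndufs5 and Tlr12 the count was 6 of 224 (2.68%). The 3 libraries were chosen by measured values, so these shares are descriptions and carry no test.

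The size of the separation set a few members apart from the rest. Ndufs5 (2.59) and Tlr12 (1.06) had the highest and second highest separation of the 13911 genes, and Zfp69 (0.36), which played no part in drawing the interval, the next highest. A separation of 0.26 or more, a 1.2-fold gap, was reached by 3 members (1.33%) and by 0.0791% of all genes, which is 11 genes. The 3 include Ndufs5 and Tlr12, whose values chose the libraries and the interval, so the higher share of the members was built in. Zfp69 is the only other. Of those 11 the 8 that are not members lie on chromosomes other than 4, beginning with Cdkl4 at 0.35. A separation of 0.58 or more, a 1.5-fold gap, was reached by Ndufs5 and Tlr12 (0.885% of the members) and by no other of the 13911 genes, of which these 2 make 0.0144%. These shares therefore rest only on the genes that made the choice. In the opposite direction 0 members reached 0.26, beside 0.0359% of all genes.

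**Figure D3:**
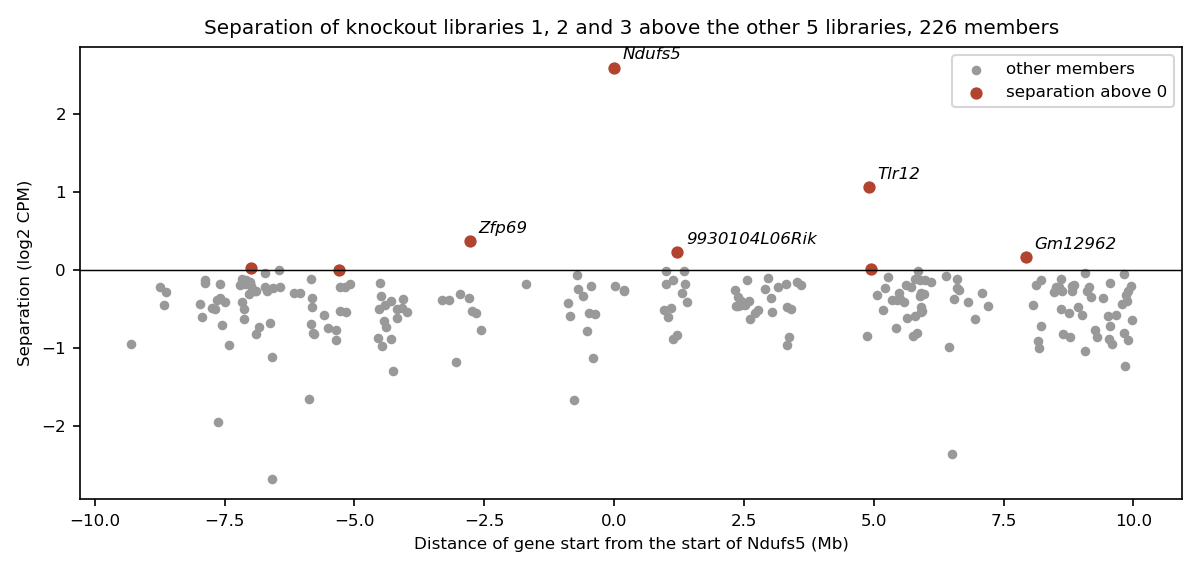
Separation of knockout replicates 1, 2 and 3 above the other 5 libraries (log2 CPM) for each of the 226 members against the distance of its start from the start of Ndufs5 (Mb). Each point is a gene; red points are the 8 members above 0, among which Ndufs5 (2.59), Tlr12 (1.06) and Zfp69 (0.36) are highest, and members close to Ndufs5 lie below 0.

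Zfp69 (ENSMUSG00000064141, chromosome 4, 120930137 to 120951699, minus strand, at -2.78 Mb) encodes a KRAB zinc finger protein, a class of DNA-binding repressors. It was at 5.69, 5.75, 6.87 and 4.15 CPM in the knockout libraries and at 4.42, 4.39, 3.49 and 4.19 CPM in the wildtype libraries. All 3 libraries of the pattern exceeded the other 5, by a much smaller margin than for Tlr12, and knockout replicate 4 sat among the wildtype libraries. The reads behind it were 90 to 93 in the 3 libraries and 55 to 70 in the other 5.

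9930104L06Rik (ENSMUSG00000044730, at 1.22 Mb) had the next separation, 0.22, and ranked 14 of all genes. Its levels were 9.76, 10.5, 11.8 and 8.38 CPM in the knockout libraries and 7.34, 6.77, 7.42 and 7.09 CPM in the wildtype libraries. Here knockout replicate 4 also exceeded all 4 wildtype libraries, so this gene separates the labels as well as the 3 libraries. Cdca8, a cell division gene on the opposite strand, overlaps 9930104L06Rik, shares 147 identical bases with it and was at 0.680 to 2.06 CPM. The counting was made without regard to strand, so reads from the shared stretch are uncertain.

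The remaining 4 followers cleared the gap narrowly. Gm12962, a lincRNA at 7.93 Mb (separation 0.16), was at 1.44, 1.15, 1.33 and 1.01 CPM in the knockout libraries and at 0.680, 0.816, 1.01 and 0.645 CPM in the wildtype libraries, which are 10 to 23 reads each. Ccdc163, a coiled-coil protein gene at -7.0 Mb (0.02), was at 11.6, 13.3, 15.3 and 10.7 CPM and at 8.50, 11.4, 11.2 and 11.4 CPM. It shares 405 identical bases with the overlapping kinase gene Tesk2, so its reads are uncertain.

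Phc2, a Polycomb repressive complex gene and the member nearest to Tlr12 on its far side (4.94 Mb, separation 0.01), was at 62.0, 65.9, 61.5 and 61.2 CPM in the knockout libraries and 54.0, 53.7, 53.0 and 53.1 CPM in the wildtype libraries. Its levels split by label rather than by the 3 libraries, since knockout replicate 4 was level with replicate 3 and above every wildtype library. Med8, a Mediator subunit gene at -5.30 Mb (0.00), was at 45.4, 43.0, 46.4 and 39.0 CPM in the knockout and 42.9, 42.3, 43.0 and 42.4 CPM in the wildtype libraries. For Med8 the lowest of the 3 and the highest of the 5 were equal at this precision.

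Just short of following were, among others, Tmem53 (-0.01), Fam167b and Fhl3 (each -0.02), so the count of 8 depends on a narrow margin. Knockout replicate 3, which had the highest Ndufs5 share, was the highest library for 5 of the 8 followers, knockout replicate 1 for 2 and knockout replicate 2 for 1. The 1 member in the opposite direction was Atpaf1 (-7.93 Mb, opposite separation 0.07), an assembly factor gene of the mitochondrial ATP synthase. Atpaf1 was at 7.88, 9.01, 8.86 and 9.45 CPM in the knockout libraries and 11.3, 10.4, 11.7 and 12.1 CPM in the wildtype libraries. Its processed copy Gm14117, identical over 843 bases, was at 0.256 CPM or less. Reads that fit both places equally were not counted, so this low level does not show how many Atpaf1 reads were lost.

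Of the members just short of following, Tmem53, which encodes a transmembrane protein, was at 18.6, 18.2, 18.7 and 18.3 CPM in the knockout and 15.7, 14.5, 14.5 and 16.9 CPM in the wildtype libraries. Fam167b was at 8.88, 8.69, 8.27 and 8.38 CPM and at 7.14, 7.34, 5.90 and 3.93 CPM. Both split by label, with knockout replicate 4 beside the other knockout libraries.

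In the opposite direction, the members after Atpaf1 by separation were Akirin1, St3gal3, Thrap3, Utp11 and Sfpq, at 0 or just below. Thrap3, a gene of transcription and splicing, was at 38.1, 42.5, 38.6 and 51.9 CPM in the knockout and 41.7, 48.0, 46.9 and 51.5 CPM in the wildtype libraries. The sialyltransferase gene St3gal3 was at 39.8, 49.8, 52.9 and 63.3 CPM and at 51.6, 61.4, 53.8 and 71.0 CPM. In both genes knockout replicate 4 was the highest of the knockout libraries, and wildtype replicate 1, the lowest of its group, overlapped the 3 libraries. Sfpq, an abundant splicing factor gene, stayed between 141 and 160 CPM in all 8 libraries.

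The same-direction followers started from -7.0 Mb (Ccdc163) to 7.93 Mb (Gm12962) from the start of Ndufs5. Of the 16 other members that start within 1 Mb of Ndufs5 0 followed, and of the 15 that start between Zfp69 and Ndufs5 0 followed. Of the 42 between Ndufs5 and Tlr12 1 did (9930104L06Rik), and of the 24 within 1 Mb of Tlr12 1 did (Phc2). On chromosome 4 outside the interval 5 of 663 genes followed in the same direction (0.754%), and among all other placed genes 151 of 12701 (1.19%). At shares this low, groups of 15 to 42 members are likely to hold few followers or none. The counts near Ndufs5 and Tlr12 therefore cannot show whether followers cluster there.

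The closest neighbours of Ndufs5 varied without the pattern. Macf1, a giant cytoskeletal linker gene at -0.36 Mb, was at 144, 178, 156 and 214 CPM in the knockout and 169, 196, 193 and 191 CPM in the wildtype libraries. Akirin1, a nuclear protein gene at 0.02 Mb, was at 21.5, 21.7, 21.6 and 23.6 CPM and at 24.6, 22.3, 24.9 and 21.7 CPM. Mycbp, which encodes a partner of MYC (0.19 Mb), ranged over 24.8 to 35.2 CPM in knockout and 28.0 to 35.7 CPM in wildtype libraries, and Rragc, a Rag GTPase gene of nutrient sensing (0.20 Mb), over 96.1 to 116 and 88.3 to 102 CPM. All 4 overlapped between the 3 libraries and the other 5, although Akirin1 was low in the 3 libraries with an opposite separation that rounds to 0.

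Around Tlr12 the picture was alike. The zinc finger gene Zscan20, on the near side, ranged over 3.25 to 5.96 CPM in knockout and 4.00 to 5.52 CPM in wildtype libraries. Zfp362, also a zinc finger gene, ranged over 21.0 to 24.3 and 23.3 to 26.4 CPM, and the ubiquitin ligase gene Trim62 over 3.50 to 6.01 and 3.70 to 4.62 CPM. None of these 3 followed in either direction.

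**Figure D4:**
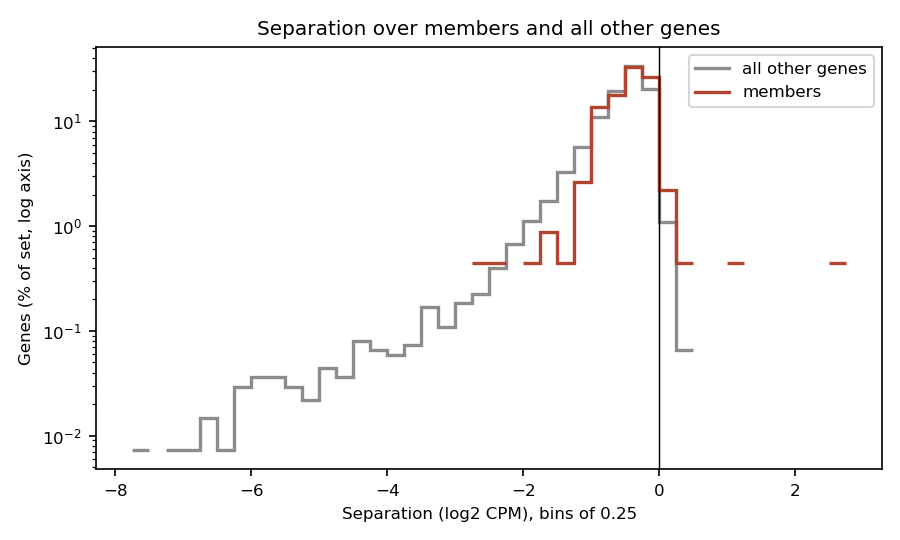
Share of genes (percent of each set, log axis) by separation in bins of 0.25 log2 units, for the 226 members (red) and all other genes with a mean of 1 CPM or more (grey). Both sets peak just below 0, where the 3 libraries overlap the other 5. Beyond 0.58 the members' line holds only Ndufs5 and Tlr12, which chose the libraries, and the other line is empty.

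Below the level threshold, 315 genes of the interval were not members, and 76 of these had 15 counts or more over the 8 libraries. Of the 76, 3 followed in the same direction (Dnali1, 1700086P04Rik and Snora16a) and 1 in the opposite one (Gm12929). All 4 were named after their values were seen. No share over all genes at such levels was taken, so these counts cannot be called high or low. Snora16a, a small nucleolar RNA in an intron of Snhg12 at 0.890 CPM in knockout, had a separation of 0.57. It was at 1.13, 0.831, 1.40 and 0.201 CPM in the knockout libraries and at 0.204, 0.376, 0.380 and 0.516 CPM in the wildtype libraries. These are 13 to 19 reads in the 3 libraries and 3 to 8 in the other 5. Its host Snhg12, a member, was at 14.5, 15.0, 12.8 and 11.5 CPM and at 14.0, 9.22, 12.2 and 9.80 CPM and did not follow.

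The comparison the study was built for is knockout against wildtype by label, which was tested for the members other than Ndufs5 and Tlr12. All 224 passed the filter on low counts. By edgeR's quasi-likelihood test with Benjamini-Hochberg adjustment over all 14433 genes tested, 0 members passed an adjusted p of 0.05, and 0 genes did (0% of the 14433); the smallest adjusted p among the members was 0.957. At an unadjusted p under 0.05 there were 17 members (7.59%, against 4.00% of all genes), of which 14 were higher in knockout (6.25%, against 2.17%) and 3 lower (1.34%, against 1.84%). DESeq2 also called 0 of the 224. Over all genes its count was not 0, since it called Ndufs5, whose values chose the interval.

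The label differences of the members were centred near 0. Log2 differences were positive in 117 and negative in 107, with a median of 0.01 beside 0.01 over all tested genes, and a median size of 0.10 beside 0.12. They ranged from -0.88 to 1.15. In 6 members every knockout library was above every wildtype library (2.68%, against 0.991% of all genes) and in 5 every knockout library was below (2.23%, against 0.991%). The 6 were 9930104L06Rik, Phc2, Fhl3, Tmem53, Fam167b and Mycl, and the 5 were Zmynd12, Atpaf1, Utp11, Mecr and Ago4; Mycl, Mecr and Ago4 were named after their values were seen.

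**Figure D5:**
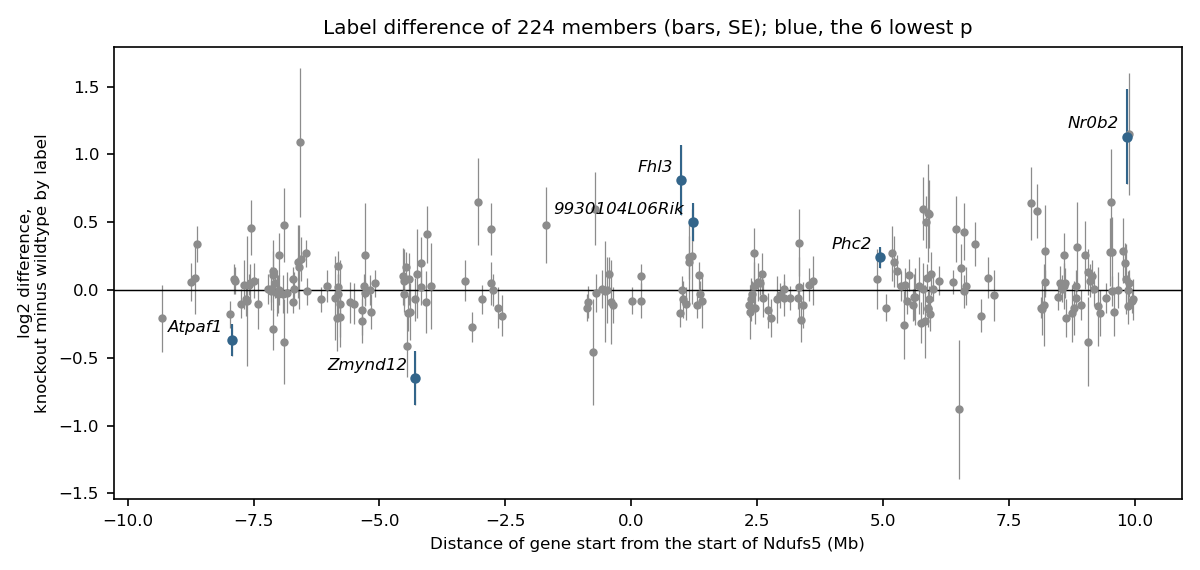
Log2 difference between the labels (knockout minus wildtype) with its standard error for the 224 members other than Ndufs5 and Tlr12, against the distance from the start of Ndufs5 (Mb). Each point is a gene, the 6 with the lowest p are blue and named, and the points scatter about 0 along the whole interval with a median of 0.01.

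The 6 members with the lowest p, none of which passed adjustment, included 3 already described. 9930104L06Rik had a log2 difference of 0.50 (SE 0.14, edgeR unadjusted p = 0.00505), Phc2 of 0.24 (SE 0.08, edgeR unadjusted p = 0.0112) and Atpaf1 of -0.37 (SE 0.12, edgeR unadjusted p = 0.0125). For each of these the 2 groups did not overlap.

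Nr0b2, which encodes an orphan nuclear receptor that represses other nuclear receptors, was at 3.19, 6.01, 2.22 and 5.43 CPM in the knockout and 2.92, 1.44, 1.59 and 1.81 CPM in the wildtype libraries (log2 difference 1.13, SE 0.35, edgeR unadjusted p = 0.00844). Its high libraries were knockout replicates 2 and 4, the libraries with the most heat-shock transcripts, whose part in the value was not tested; the groups overlapped. Zmynd12, a MYND zinc finger gene, was at 1.5, 1.28, 1.70 and 1.54 CPM in the knockout and 2.31, 2.32, 2.47 and 2.39 CPM in the wildtype libraries (log2 difference -0.65, SE 0.20, edgeR unadjusted p = 0.00887). All 4 knockout libraries were below all 4 wildtype libraries, at 20 to 39 reads each.

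Fhl3, a LIM domain gene, was at 3.69, 4.86, 7.75 and 3.75 CPM in the knockout and 2.24, 3.07, 2.98 and 3.16 CPM in the wildtype libraries (log2 difference 0.81, SE 0.26, edgeR unadjusted p = 0.0116). The groups did not overlap, and knockout replicate 3 was the highest. Its processed copy Gm13898 (97.8% identity over 360 bases) was at 0.0680 CPM or less. As for Atpaf1, the low level of the copy does not show how many reads were lost.

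Of the 4 most abundant members, Akr1a1, Prdx1 and Ybx1 had group means closer than the larger of their SDs, and Pdzk1ip1 was among the 17 with an unadjusted p under 0.05. Akr1a1, an aldehyde reductase gene, was at 2384 ± 291 CPM in knockout and 2306 ± 70.7 CPM in wildtype libraries, and Prdx1, a peroxiredoxin gene, at 920 ± 231 and 940 ± 24.8 CPM (SD, n = 4 each). Ybx1, a cold-shock RNA-binding protein gene, was at 517 ± 71.7 and 584 ± 80.9 CPM. Pdzk1ip1, which encodes a small membrane protein of the proximal tubule, was at 591, 465, 407 and 498 CPM in the knockout and 423, 335, 418 and 381 CPM in the wildtype libraries (log2 difference 0.34, SE 0.13, edgeR unadjusted p = 0.0298). For Pdzk1ip1 the groups overlapped through knockout replicate 3.

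By function, no group of members was called for the label. Of 32 members of RNA processing and translation 15 were positive and 17 negative with a median of -0.01, and 0 followed the pattern. Of 28 members of chromatin and transcription 14 were positive and 14 negative with a median of -0.01, and 2 followed. Of 20 members of metabolism and mitochondria, a list that leaves out Ndufs5, 8 were positive and 12 negative with a median of -0.03, and 1, Atpaf1, followed in the opposite direction. An edgeR unadjusted p under 0.05 was reached by 4 of the 28 (all higher in knockout), 2 of the 20 (both lower) and 0 of the 32. Over all genes tested, 2.17% reached it and were higher and 1.84% lower, and no test of the lists as sets was made.

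Among 8 members of transport and channels 6 were positive, with a median of 0.17, and among 8 of cell division and DNA repair 6 were positive, with a median of 0.15. In both lists 0 members followed. Of 14 members of adhesion, matrix and signals, such as Guca2b, which encodes the natriuretic peptide uroguanylin (307 ± 83.3 and 233 ± 54.6 CPM, SD, n = 4 each), 6 were positive with a median of -0.07. The median over all tested genes was 0.01.

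Outside the interval, the partners of the 2 genes that set the pattern did not share it. Of the 35 other nuclear complex I subunit genes found in the files, 0 were called for the label and 0 had an edgeR unadjusted p under 0.05. Of these, 32 differences were positive and 3 negative, with a median of 0.15, and 0 subunit genes followed the 3 libraries. The median was 0.02 without knockout replicate 1 and 0.24 without wildtype replicate 1. With a replicate block 5 of the 35 had an edgeR unadjusted p under 0.05. The block also raised that count over all genes tested, from 578 to 1075. The subunit genes most like Ndufs5 in this measure were Ndufb6 (separation -0.02), at 83.8, 67.9, 66.7 and 67.5 CPM in the knockout and 63.9, 60.1, 63.1 and 64.9 CPM in the wildtype libraries, and Ndufs3 (-0.03). Ndufb6 split by label, with knockout replicate 4 on the side of the other knockout libraries.

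Of the 11 other toll-like receptor genes, 6 passed the filter on low counts, 0 were called and 0 followed, with a median of -0.07. Tlr3, the endosomal receptor for double-stranded RNA and the most abundant of the others, was at 22.0, 17.8, 15.5 and 22.4 CPM in the knockout and 16.9, 16.6, 19.0 and 18.7 CPM in the wildtype libraries. Tlr11, the partner of Tlr12, was at 0.125 to 0.812 CPM in knockout and 0.272 to 2.20 CPM in wildtype libraries, and was named for that role. Neither was high in the 3 libraries of the pattern. Of the 14 genes that carry the receptors' signal, 13 were tested and 0 were called or followed, with a median of -0.06. With 1 library left out, the median over the receptor and signalling genes together ran from -0.13 (without knockout replicate 3 or wildtype replicate 1) to -0.01 (without wildtype replicate 3).

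Leaving out doubtful libraries raised the count of followers. Of the leading genes, Ndufs5 and Tlr12, which set the pattern, kept their ranks and Zfp69 did not. Without knockout replicate 2 and wildtype replicate 1, the libraries with adrenal transcripts, 34 members followed in the same direction and 31 in the opposite one, beside 10.6% and 12.5% of all genes. Without knockout replicates 2 and 4, those with the most heat-shock transcripts, the counts were 25 and 22, beside 7.30% and 7.88%. Fewer libraries make a gap easier to clear, for members and for other genes. Ndufs5 and Tlr12 kept the highest and second highest separation of all genes in both, while Zfp69 ranked 47 and 32. With the reads of Ndufs5 and BC002163 summed, the sum ranked 4922 and did not follow, Tlr12 ranked 1 and Zfp69 ranked 2.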

How the data were processed

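The deposited values were raw counts per gene in whole numbers, with 1 file for each library; they had not been normalized. Per the submitters' processing notes the authors used STAR, HTSeq and edgeR with the genome build mm9; their versions and the annotation were not given in the sources used here. Counting ignored strand, per the names of the deposited files. Lines that name no gene were left out of library sizes: 11.6% to 16.2% of reads lay outside genes, 2.05% to 2.31% were ambiguous and 15.8% to 20.9% had no unique place.

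Symbols and positions came from GENCODE M21 on GRCm38 by Ensembl identifier (32860 of 37583 matched); no coordinate was converted. CPM were scaled by TMM in edgeR 4.0.16 (R 4.3.3). Groups were compared by edgeR's quasi-likelihood test after filterByExpr (minimum count 10), adjusted by Benjamini-Hochberg over 14433 genes, with 0.05 as threshold. Alternatives used DESeq2 1.42.0 and limma 3.58.1. Copies were found with BLAST 2.17.0, and figures drawn with matplotlib 3.10.9. A count of 0 allows up to 0.222 CPM in the smallest library (a floor of 3 counts). Counts differed between all 28 pairs of libraries by 10.1 to 78.4 times sampling noise (chi-square per gene). The tests were checked on simulated data.

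The members and gene lists were chosen with earlier results of these data known. Genes were named by rule: the pattern genes, the 4 members nearest to each, the 10 and 6 highest separations, the 6 lowest p, the 4 most abundant, the leading gene of each list, and the members at both thresholds and ends. Exceptions are given as named after values were seen. Some genes named by the rule are not reported here.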

Additional observations from a re-analysis of the deposited data

Results flagged for a closer look

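Among 102 sets of 4 libraries (51 named genes in 2 groups), 6 held a library that stood apart from the other 3 by Dixon's 95% critical value; chance alone gives about 1 in 20. Akirin1 was highest at 23.6 CPM in knockout replicate 4, next to 21.7 CPM. Phc2 was highest at 65.9 CPM in knockout replicate 2, next to 62.0 CPM. Utp11, a ribosomal RNA processing gene, was lowest at 32.1 CPM in knockout replicate 3, next to 36.9 CPM. Ndufb6 was highest at 83.8 CPM in knockout replicate 1, next to 67.9 CPM.

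The other 2 concerned wildtype replicate 1, a library with adrenal transcripts, whose part in these values was not tested. Ccdc163 was lowest there at 8.50 CPM, next to 11.2 CPM, and Irak4, a kinase gene of toll-like receptor signalling, was lowest at 7.21 CPM, next to 11.0 CPM.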

How the results depend on the processing

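Label calls among the 224 members other than Ndufs5 and Tlr12 were 0 under every alternative run. For complex I and toll-like genes they were 0 with RLE scaling, DESeq2, a replicate block or any 1 library left out; other alternatives were not run for these lists. Followers numbered 8 and 1 (same and opposite direction) in the reported analysis. They numbered 5 and 0 within 5 Mb of Ndufs5 (82 members), 3 and 0 at a separation of 0.26 or more, and 2 and 0 at 0.58 or more. Leaving out 1 library gave 8 to 20 in the same direction and 1 to 13 in the opposite one. The same-direction count passed 1.5 times the reported one without knockout replicate 1 (14), 2 (20), 3 (18) or 4 (13) and without wildtype replicate 1 (19), with 2.03% to 6.26% of all genes following. The opposite count was 3 without wildtype replicate 2 or 4, and 4, 13, 11 and 4 without knockout replicates 1 to 4 and 11 without wildtype replicate 1. Without the libraries with adrenal transcripts the counts were 34 and 31, and without those with high heat-shock transcripts 25 and 22, alternatives chosen after seeing the data, as was summing Ndufs5 with its copy (7 and 1). Ndufs5, Tlr12 and Zfp69 followed in every analysis that left out 1 library, Ndufs5 ranking 1, Tlr12 2 or 3 and Zfp69 8 to 33. Leaving out a library can only keep or widen a gap, apart from rescaling, so their following was fixed in advance and only the ranks could change.

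Leaving out 1 library turned the sign of 7 named members' small label differences: Akr1a1 (-0.04) and Arid1a (0.04) without knockout replicate 1, Prdx1 (0.05) and Rad54l (0.01) without knockout replicate 2, Rad54l (0.20) without knockout replicate 3, Mycbp (0.01), Zscan20 (-0.04) and Prdx1 (0.10) without knockout replicate 4, Trabd2b (0.07) without wildtype replicate 2, and Rad54l without wildtype replicates 3 (0.16) and 4 (0.01). The widest values of these members with 1 library left out on the other side of 0 were -0.16 (Mycbp), 0.22 (Zscan20) and -0.19 (Prdx1) without knockout replicate 1, -0.37 (Trabd2b) without knockout replicate 3, -0.16 (Arid1a) without knockout replicate 4 and -0.34 (Rad54l) without wildtype replicate 2. The cause was not tested.

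Replicate numbers are shared by the labels but not said to pair animals; the correlations of same-numbered libraries' deviations were 0.17, -0.30, 0.32 and 0.33, and 2 of 4 libraries correlated best with their own number. With a replicate block, 0 members were called, and unadjusted p under 0.05 went from 17 to 24 members, from 0 to 5 complex I genes, from 2 to 4 toll-like genes and from 578 to 1075 genes in all. Gm12962 and the wildtype counts of Ndufs5 rest on few reads and are limited by depth.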
